A study of Mus musculus with 68 samples.

Results

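A set of 10 genes of the Notch pathway was followed through the first and second pharyngeal arches of mouse embryos: the receptors Notch1, Notch2 and Notch3, the ligands Dll1, Dll4, Jag1 and Jag2, and the target genes Hes1, Hey1 and Heyl. They were taken by symbol, as the rows of the deposited expression table whose Ensembl identifiers carry those names. The list was chosen with earlier results of these data known. All 10 were among the 21948 genes of the table, and all 10 passed a filter of at least 1 CPM, the depth-scaled read count per gene, in at least 3 libraries, as did 18428 genes in all. Pharyngeal arches are bulges of tissue that flank the embryonic foregut. The first arch (PA1) forms the jaws, and the second (PA2) forms part of the hyoid and the stapes. Polyadenylated RNA was sequenced from 68 libraries, each from 1 arch of 1 embryo, at 4 stages from embryonic day E9.0 to E10.5, spaced by 0.5 day. Embryos were wildtype or carried the genotype label Hoxa2-/-, and all were labelled with the strain CBA/Ca/J x C57BL/10, with no treatment named. By stage, from E9.0 on, there were 5, 5, 5 and 3 libraries of wildtype PA1 and 4, 4, 5 and 3 of wildtype PA2. Each arch with the label Hoxa2-/- gave 4, 5, 5 and 3. PA1 and PA2 of a replicate number came from a single embryo, per the series text, and 33 of 35 embryos gave both arches. In mm10 coordinates of the GENCODE annotation, the receptors are Notch1 (ENSMUSG00000026923) at chr2:26457903-26516663, Notch2 (ENSMUSG00000027878) at chr3:98013527-98150361 and Notch3 (ENSMUSG00000038146) at chr17:32120820-32166852. The ligands are Dll1 (ENSMUSG00000014773) at chr17:15367354-15376872, Dll4 (ENSMUSG00000027314) at chr2:119325784-119335962, Jag1 (ENSMUSG00000027276) at chr2:137081456-137116644 and Jag2 (ENSMUSG00000002799) at chr12:112907819-112929776, and the targets are Hes1 (ENSMUSG00000022528) at chr16:30064384-30067796, Hey1 (ENSMUSG00000040289) at chr3:8663359-8667256 and Heyl (ENSMUSG00000032744) at chr4:123233556-123249875. The labels describe no conditional allele, no sorted cells and no pooling, and each library is a whole hand-dissected arch with all of its cell types.

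Notch receptors are membrane proteins that are cut when a Delta-like or Jagged ligand on a neighbouring cell binds them. The freed intracellular domain enters the nucleus and joins the DNA-binding protein RBPJ to switch on targets, of which the Hes and Hey repressors are the best known. In the pharyngeal arches the pathway is known for Jagged-Notch signals in the pattern of the facial skeleton and in the walls of the arch arteries, and Dll4 is a ligand of arterial endothelium. Hoxa2 is the homeobox gene that gives PA2 its identity, and its loss turns PA2 skeleton toward a PA1 form.

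The upstream sequences of Jag1 and Dll4 are shown because these 2 ligands differed between the arches with different timing. RefSeq's promoter table for GRCm38.p6 held windows for 7 of the 10 genes, and Hes1, Hey1 and Heyl had none. Capitals mark the letters TGACAG, the core bound by Meis-type TALE homeodomain proteins, on the strand shown. The Jag1 sequence is chr2:137116645-137116770 on the minus strand, 126 bases that end just before the annotated gene. The Dll4 sequence is chr2:119325534-119325783 on the plus strand, 250 bases that likewise end just before the gene.
Jag1: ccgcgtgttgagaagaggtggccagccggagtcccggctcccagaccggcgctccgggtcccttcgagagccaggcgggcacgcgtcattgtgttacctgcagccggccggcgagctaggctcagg
Dll4: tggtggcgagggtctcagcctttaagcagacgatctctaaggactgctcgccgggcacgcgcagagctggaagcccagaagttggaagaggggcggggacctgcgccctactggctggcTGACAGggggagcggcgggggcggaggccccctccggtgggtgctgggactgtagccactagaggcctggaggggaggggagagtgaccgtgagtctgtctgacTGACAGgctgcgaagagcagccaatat
Dll4 held TGACAG at 2 positions, starting 131 and 27 bases before the gene, and Jag1 held none in the 250 bases before its RefSeq start. Among 32851 mouse promoter windows of 250 bases, 15.9% held TGACAG on either strand and 1.64% held it more than once. Neither the RBPJ core TGGGAA (21.6% of windows) nor the Hox-Pbx core TGATNNAT (7.68%) was found on either strand in the 250 bases before either ligand gene. Of the other 5 genes with a window, Notch3 and Dll1 held TGACAG. These are letter matches in short windows and no measure of binding.

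Sequencing depth ran from 8912251 to 20619153 recovered reads per library, so 3 reads corresponded to 0.140 to 0.328 CPM. Hoxa2 went against its label. In PA2 it averaged 58.3 ± 4.52 CPM (SD, n = 3) in wildtype and 132 ± 15.7 CPM (SD, n = 3) in libraries labelled Hoxa2-/- at E10.5, and in PA1 it was under 1 CPM in all libraries of both labels. The sources do not say which part of the gene is changed, so Hoxa2 RNA does not settle the genotype, and groups are called by their label throughout. A set of 24 wildtype libraries, those of every stage but E10.0, stood apart from the other 44 in genes such as Ski, chosen after its values were seen, at 26.3 to 108 CPM against 9.28 to 22.8 CPM. The third library of PA2 labelled Hoxa2-/- at E9.0 stood apart in another way. Its level of long transcripts, the median log2 deviation of 1200 genes with transcripts of at least 6688 bases, was -0.79 against -0.35 to 0.22 in the other 67, and its yolk sac endoderm markers summed to 424 CPM. Markers of arch mesenchyme, the labelled tissue, were present in all 68 libraries at a summed 359.7 to 874 CPM.

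Per kilobase of their longest transcript, Hes1 (25.5 CPM per kilobase, mean of 68 libraries) and Hey1 (22.8) were the most abundant of the 10 genes. Jag1 followed at 8.88 and Notch3 at 6.10 CPM per kilobase. Heyl (2.68), Jag2 (2.11), Dll4 (2.04), Notch2 (1.58), Notch1 (1.30) and Dll1 (0.917) were lower, and their ranges over libraries overlapped. Jag1 was thus the leading ligand and Notch3 the leading receptor on this scale. Hes1 had the smallest ratio of highest to lowest group mean, its 16 group means lying between 20.4 and 32.9 CPM per kilobase. Hey1 group means ran from 5.91 in PA1 labelled Hoxa2-/- at E10.5 to 43 in PA2 labelled Hoxa2-/- at E9.5. Heyl group means ran from 0.746 in the first of those groups to 5.30 in wildtype PA2 at E9.5.

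**Figure D1:**
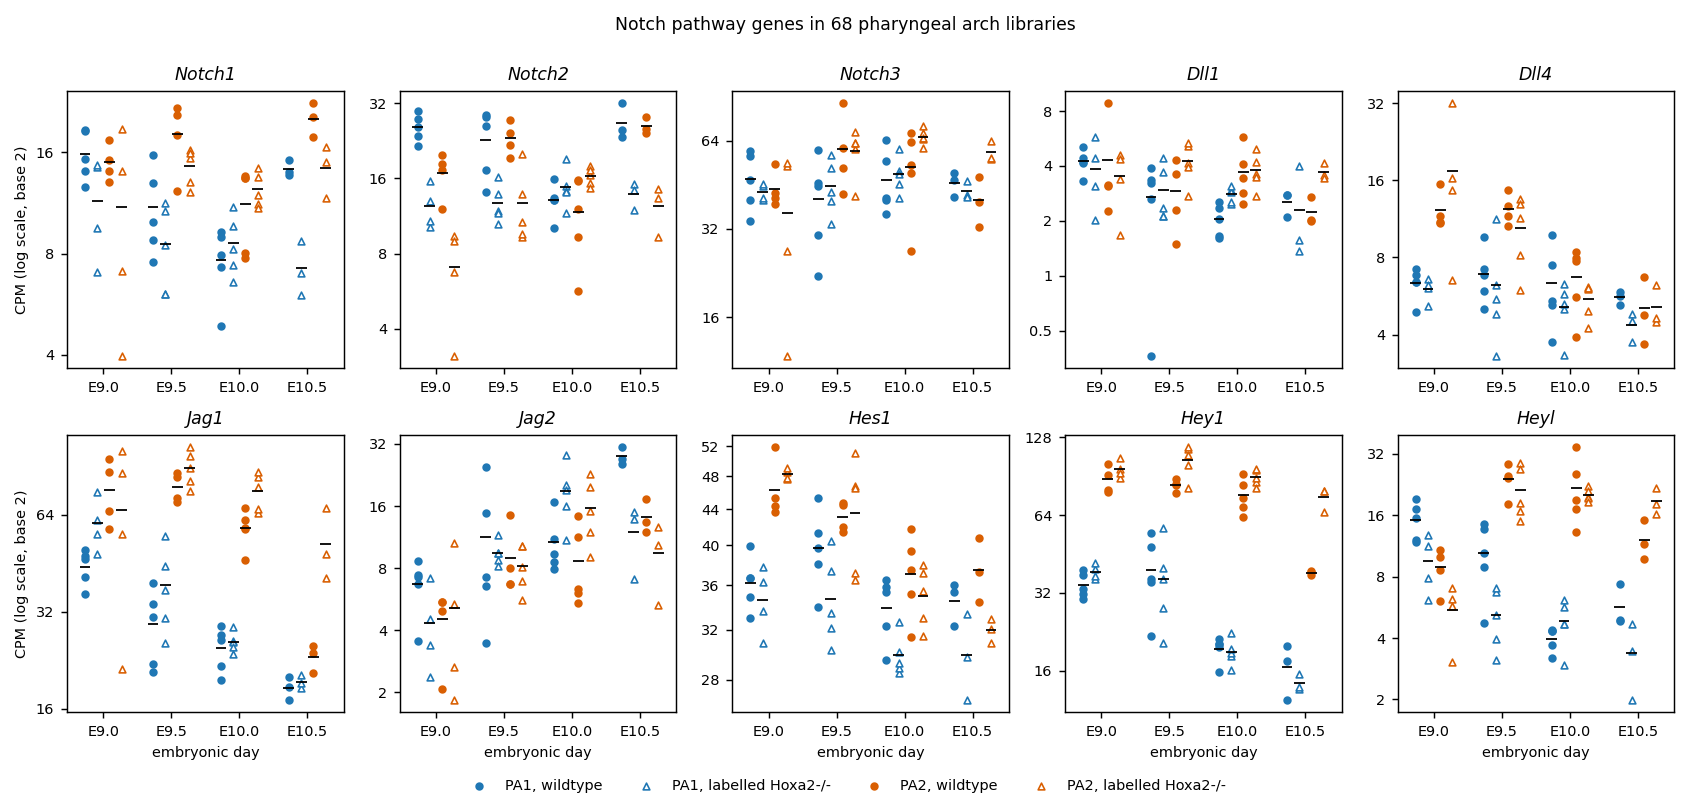
Each panel plots 1 gene in CPM on a log scale (base 2) against embryonic day, with 1 point per library, filled circles for wildtype, open triangles for the label Hoxa2-/-, blue for PA1, orange for PA2 and a black bar for each group's mean. Hey1 in PA2 lies above Hey1 in PA1 at every stage and label, while Heyl crosses from lower in PA2 at E9.0 to higher from E9.5 on.

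The first comparison asked how PA2 differed from PA1 within each label and stage. Hey1 was the higher in PA2 throughout, at each of 4 stages and under either label, by 2.13 to 5.23 times in group means, and its PA2 and PA1 libraries did not overlap in any of the 8 comparisons. Jag1 was higher in PA2 in 6 of 8 comparisons. Heyl was lower in PA2 at E9.0 and higher at E9.5 and E10.0 under both labels and at E10.5 under the label Hoxa2-/-. Dll4 was higher in PA2 at E9.0 and E9.5, and Notch1 at E9.5. Tests were limma fits across all 18428 genes, a difference was called at an adjusted p under 0.05, and fold changes were taken on log2(CPM + 1), a scale that understates low genes. In whole arches, fewer cells of a type and less RNA per cell cannot be told apart.

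In wildtype embryos, 6, 5, 3 and 1 of the 10 genes were called between the arches by stage, beside 18.7%, 26.3%, 5.94% and 1.52% of all genes tested. Under the label Hoxa2-/- the counts were 5, 6, 3 and 3 of 10, beside 24.6%, 9.58%, 4.23% and 1.37%. Hey1 was called at every stage, also at E10.5, where these shares were lowest. The median log2 difference of the 10 genes in wildtype was -0.08, 0.63, 0.31 and 0.04 by stage, against -0.01, 0.01, -0.02 and -0.01 over all genes. Under the label Hoxa2-/- it was -0.08, 0.56, 0.37 and 0.51, against -0.01, -0.02, 0.00 and 0.01.

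**Figure D2:**
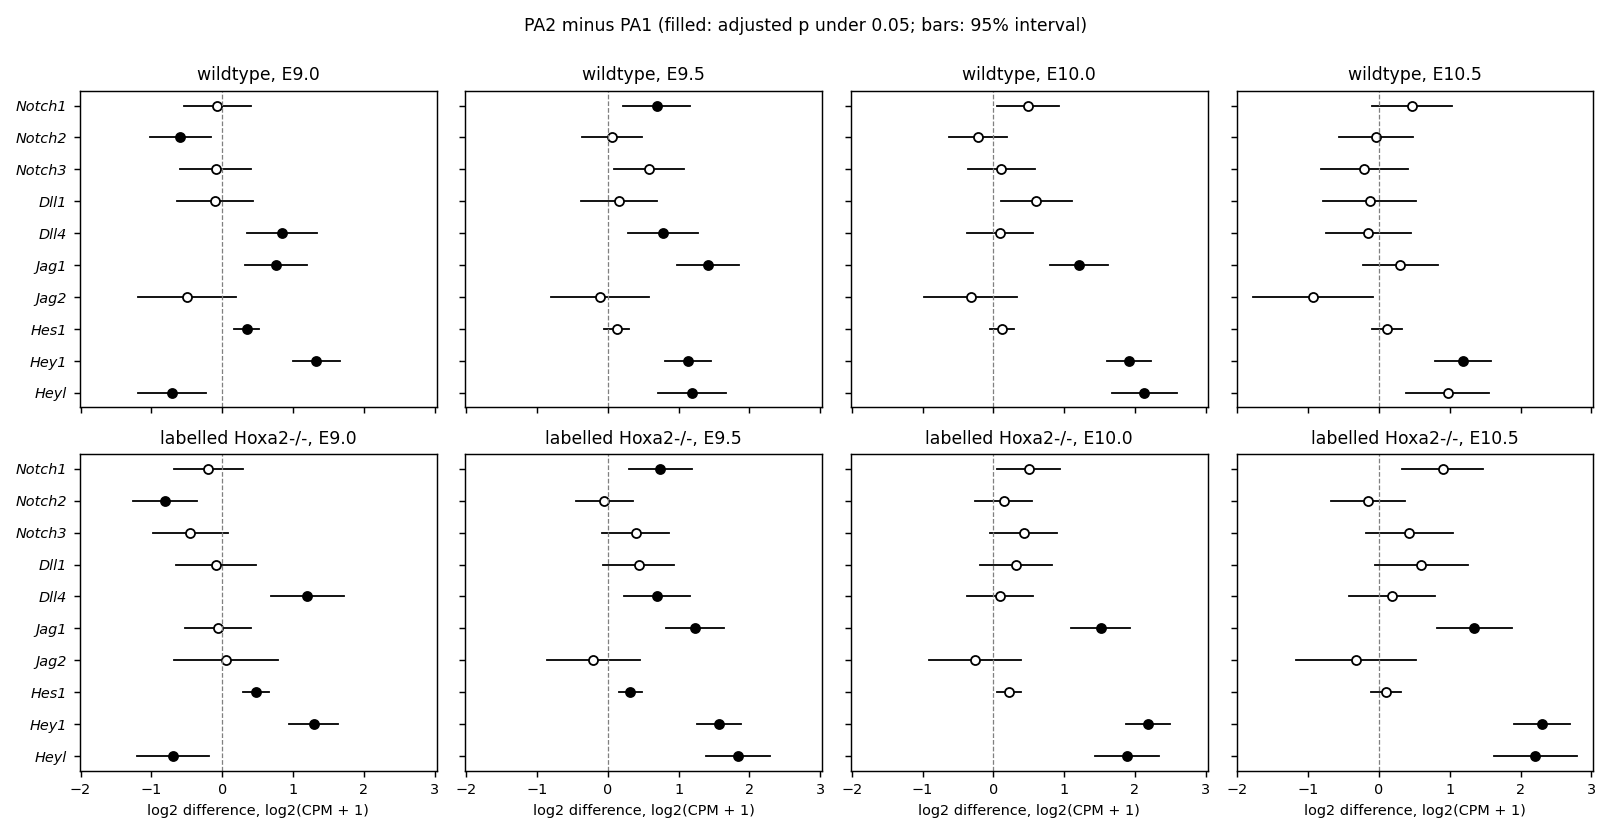
Points are log2 differences of PA2 minus PA1 for the 10 genes on the log2(CPM + 1) scale, with 95% intervals, in wildtype (top) and under the label Hoxa2-/- (bottom) at the 4 stages; filled points passed an adjusted p of 0.05. Hey1 lies to the right of 0 with a filled point in all 8 panels, and Heyl is left of 0 in both E9.0 panels and right of 0 in the other 6.

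Among the receptors, Notch1, which is prominent in endothelium and epithelium, differed at 1 stage. Wildtype PA1 at E9.5 held 7.54, 12.9, 9.91, 15.7 and 8.79 CPM and wildtype PA2 20.6, 12.2, 18 and 21.7 CPM. At the same stage, PA1 labelled Hoxa2-/- held 11.3, 10.7, 6.06, 6.07 and 8.49 CPM and PA2 15.4, 13.1, 16.3, 16 and 12.2 CPM. The wildtype arches overlapped and those labelled Hoxa2-/- did not. The PA2 minus PA1 differences were 0.69 (SE 0.23, adjusted p = 0.023) and 0.74 (SE 0.22, adjusted p = 0.021). Leaving out any 1 of 6 of the 9 wildtype libraries, or of 3 of the 10 labelled Hoxa2-/-, ended the calls. At E10.0 and E10.5 the Notch1 values were 0.49 and 0.47 in wildtype and 0.50 and 0.90 under the label Hoxa2-/-, none called. With the embryo as a block the last of these passed, at an adjusted p of 0.041. Fitting only the compared groups called both values under the label Hoxa2-/- (adjusted p = 0.038 and 0.04). With the long-transcript level as a covariate, the wildtype value at E10.0 was 0.57 and passed (adjusted p = 0.025). Within embryos, Notch1 was higher in PA2 in 24 of 25 pairs from E9.5 on.

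Notch2, the receptor that works with Jag1 in several tissues, was lower in PA2 at E9.0. Wildtype PA1 held 29.9, 27.7, 23.7, 21.7 and 25.6 CPM against 18.2, 17.3, 19.9 and 12.1 CPM in PA2, with no overlap. PA1 labelled Hoxa2-/- held 13.1, 10.3, 10.9 and 15.6 CPM against 9.37, 8.95, 3.12 and 6.74 CPM in PA2, again with no overlap. The differences were -0.59 (SE 0.21, adjusted p = 0.044) and -0.81 (SE 0.23, adjusted p = 0.0058). Leaving out any 1 of 7 of the 9 wildtype libraries ended the first call, as did a pseudocount of 0.25, and leaving out the third PA2 library ended the second, at -0.52 (adjusted p = 0.088). Fitting only the compared groups also ended the second call (adjusted p = 0.12). With the long-transcript level as a covariate, the values were -0.18 (adjusted p = 0.49) and -0.19 (adjusted p = 0.45). The long-transcript level was lower in wildtype PA2 at E9.0, at -0.130 to 0.0396 against 0.0745 to 0.218 in PA1, and its part in the difference was not tested otherwise. At the later stages no Notch2 difference between the arches was called, with values from -0.22 to 0.15.

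Notch3, the receptor of vascular smooth muscle and pericytes, was not called between the arches in any of the 8 comparisons. Its largest value was 0.58 (95% interval 0.08 to 1.08, adjusted p = 0.077) in wildtype at E9.5, which passed with the embryo as a block (adjusted p = 0.039). It also passed without the 3 libraries with yolk sac transcripts (adjusted p = 0.021). Under the label Hoxa2-/- at E10.0, 0.43 passed when only the compared groups were fitted (adjusted p = 0.012). With the long-transcript level as a covariate, 2 other Notch3 differences passed. These were 0.43 (adjusted p = 0.044) in wildtype at E9.0 and 0.45 (adjusted p = 0.018) under the label Hoxa2-/- at E9.5. The lowest Notch3 level of all 68 libraries, 11.8 CPM, was in the PA2 library low in long transcripts.

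Jag1, the Jagged ligand whose loss of function causes arterial and craniofacial defects, was the ligand with the widest arch difference. At E9.5, wildtype PA1 held 20.8, 39.1, 21.9, 33.8 and 30.8 CPM and PA2 72.1, 69.9, 83.8 and 85.9 CPM. Under the label Hoxa2-/- the same stage gave 55, 37.4, 30.7, 25.6 and 44.3 CPM in PA1 and 75.8, 89.5, 103, 81.2 and 97.2 CPM in PA2. All PA2 libraries at E9.5 lay above all PA1 libraries of their label. The differences were 1.42 (SE 0.22, adjusted p = 2.90e-06) and 1.23 (SE 0.21, adjusted p = 1.45e-05). At E10.0, wildtype PA1 held 27, 26.1, 19.6, 28.8 and 21.7 CPM and PA2 57.6, 67.1, 46.1, 61.4 and 58.3 CPM. PA1 labelled Hoxa2-/- held 26, 25.8, 28.7, 24.9 and 23.6 CPM and PA2 83.4, 64.8, 77.9, 66.4 and 86.7 CPM at that stage. Again the arches did not overlap, and the differences were 1.21 (SE 0.21, adjusted p = 2.40e-05) and 1.51 (SE 0.21, adjusted p = 2.24e-07).

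At E10.5 and E9.0, Jag1 was called between the arches under 1 label each. At E10.5, wildtype PA1 held 17, 18.7 and 19.98 CPM of Jag1 and PA2 25.1, 23.8 and 20.7 CPM. With the label Hoxa2-/- PA1 held 18.6, 20.4 and 19.2 CPM and PA2 40.8, 48.2 and 67 CPM. The wildtype arches lay close together, at 0.30 (SE 0.27, adjusted p = 1), and the arches labelled Hoxa2-/- lay apart, at 1.35 (SE 0.27, adjusted p = 0.00092). The difference between these 2 contrasts was 1.04 (95% interval 0.29 to 1.80, adjusted p = 1) and did not pass. At E9.0, wildtype PA1 held 40.9, 46.6, 49.6, 36.2 and 47.4 CPM and PA2 86.7, 57.6, 95.4 and 65.6 CPM, a difference of 0.76 (SE 0.22, adjusted p = 0.0097) that was lost without the PA2 library of replicate 4. The corresponding libraries labelled Hoxa2-/- held 75.4, 55.7, 61.6 and 48.1 CPM in PA1 and 101, 86.3, 21.3 and 55.8 CPM in PA2, where 21.3 CPM came from the library low in long transcripts. The difference was -0.06 (SE 0.23, adjusted p = 0.88) with that library and 0.40 (adjusted p = 0.13) without it. With the long-transcript level as a covariate it was 0.60 and passed (adjusted p = 0.0040). Across all stages and labels, Jag1 was higher in PA2 in 32 of 33 embryos, the exception being the embryo of that library.

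Dll4, the Delta-like ligand of arterial endothelium, was higher in PA2 at the first 2 stages. At E9.0, wildtype PA1 held 6.84, 6.40, 7.23, 4.90 and 6.43 CPM and PA2 15.5, 11.6, 10.9 and 11 CPM. PA1 labelled Hoxa2-/- held 6.57, 6.09, 5.18 and 6.24 CPM and PA2 32, 16.3, 6.53 and 14.7 CPM. The wildtype arches did not overlap, and under the label Hoxa2-/- only the library low in long transcripts reached down into the PA1 range. The differences were 0.84 (SE 0.25, adjusted p = 0.011) and 1.20 (SE 0.26, adjusted p = 0.00044), the second not called when only the compared groups were fitted (adjusted p = 0.079) and 1.57 (adjusted p = 5.70e-06) without the low library. At E9.5, wildtype PA1 held 6.81, 7.19, 5.06, 9.62 and 5.93 CPM and PA2 14.7, 10.6, 12.7 and 11.6 CPM, and the difference was 0.78 (SE 0.25, adjusted p = 0.016). Under the label Hoxa2-/- the levels were 11.3, 6.25, 3.31, 4.83 and 5.50 CPM in PA1 and 13.5, 11.4, 13, 8.19 and 5.97 CPM in PA2, and the difference was 0.69 (SE 0.23, adjusted p = 0.046). Both E9.5 calls depended on single libraries: the wildtype call was lost without PA1 replicate 3 or PA2 replicate 1, and the other without any 1 of 7 of its 10 libraries, and with a pseudocount of 5, the unfiltered table, edgeR or a fit of the compared groups alone. At E10.0 and E10.5 the Dll4 differences lay between -0.15 and 0.18, and none was called.

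Jag2, a Jagged ligand of epithelium, and Dll1, the Delta-like ligand best known from somites and neural progenitors, were not called between the arches at any stage or label. Jag2 had its largest value in wildtype at E10.5, with 27.1, 25.7 and 30.8 CPM in PA1 and 13.4, 17.3 and 12 CPM in PA2. Those 2 groups did not overlap, and the difference was -0.93 (95% interval -1.78 to -0.09, adjusted p = 0.58). Fitting only the compared groups called it, at an adjusted p of 0.012. Dll1 stayed between 0.364 and 8.82 CPM in all 68 libraries, and its largest arch difference was 0.61 (95% interval 0.10 to 1.12, adjusted p = 0.16) in wildtype at E10.0.

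Hey1, a repressor of the Hey family that Notch induces in vessels and mesenchyme, separated the arches throughout. At E9.0, wildtype PA1 held 37.5, 39.1, 31.8, 30.4 and 33.1 CPM and PA2 101, 78.7, 91.5 and 80.2 CPM. PA1 labelled Hoxa2-/- held 36.3, 39.5, 37 and 41.6 CPM and PA2 106, 96.4, 89.3 and 93 CPM, the library low in long transcripts included. The differences were 1.33 (SE 0.16, adjusted p = 1.12e-08) and 1.29 (SE 0.17, adjusted p = 8.54e-08). At E9.5 the wildtype levels were 36.2, 35.2, 48.3, 54.8 and 21.9 CPM in PA1 and 88.6, 84.4, 77.9 and 83.4 CPM in PA2. Libraries labelled Hoxa2-/- gave 56.9, 40.1, 28, 20.48 and 36.1 CPM and 115, 109, 99.6, 117 and 81.3 CPM. PA1 spread more widely at this stage than at any other, yet its highest library stayed below the lowest of PA2. The E9.5 differences were 1.13 (SE 0.16, adjusted p = 8.14e-07) and 1.56 (SE 0.15, adjusted p = 1.34e-11).

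Hey1 had lower PA1 levels at E10.0 than at E9.5 in group means, 19.5 against 39.3 CPM in wildtype, a step that was not tested. Wildtype PA1 held 19.7, 20.3, 15.8, 21.2 and 20.3 CPM and PA2 74.3, 92, 69, 83.4 and 62.9 CPM at E10.0. With the label Hoxa2-/- the levels were 18.2, 16.1, 18.7, 19.4 and 22.5 CPM and 95.8, 85.7, 96.7, 81.6 and 88.7 CPM. The differences were 1.91 (SE 0.15, adjusted p = 1.07e-14) and 2.19 (SE 0.15, adjusted p = 9.33e-17). At E10.5, wildtype PA1 held 12.4, 17.5 and 19.9 CPM and PA2 38.6, 39 and 37.4 CPM. The libraries labelled Hoxa2-/- held 15.6, 13.6 and 13.8 CPM and 65.7, 79.5 and 79.4 CPM. PA2 labelled Hoxa2-/- lay above wildtype PA2 by then, and the arch differences were 1.19 (SE 0.20, adjusted p = 3.91e-05) and 2.31 (SE 0.20, adjusted p = 6.60e-13). Hey1 was higher in PA2 in 33 of 33 embryos.

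Heyl, a Hey-family repressor of vascular smooth muscle and mesenchyme, was the lower in PA2 at E9.0 and the higher from E9.5. At E9.0, wildtype PA1 held 17.1, 15.5, 19.3, 11.8 and 12.1 CPM and PA2 9.94, 10.8, 6.07 and 8.66 CPM. Libraries of the label Hoxa2-/- held 11.4, 6.16, 12.8 and 7.88 CPM in PA1 and 3.07, 5.75, 6.25 and 7.01 CPM in PA2. Heyl was lower in PA2 in 8 of 8 embryos, and the wildtype groups did not overlap. The differences were -0.71 (SE 0.24, adjusted p = 0.03) and -0.69 (SE 0.25, adjusted p = 0.038). Both calls were near the threshold: leaving out any 1 of 5 of the 9 wildtype libraries, or of 3 of the 8 labelled Hoxa2-/-, ended them, as did the long-transcript level as a covariate (adjusted p = 0.054 and 0.081), and the second was lost with a pseudocount of 5 and when only the compared groups were fitted.

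At E9.5, wildtype Heyl levels were 4.73, 10.49, 14.5, 13.7 and 8.95 CPM in PA1 and 24.9, 18.1, 24.4 and 28.7 CPM in PA2. The label Hoxa2-/- gave 6.73, 5.22, 3.95, 3.13 and 7.06 CPM in PA1 and 15, 16.8, 28.9, 26.9 and 18.5 CPM in PA2. No library of PA1 reached the lowest of PA2, and the differences were 1.19 (SE 0.24, adjusted p = 0.00024) and 1.84 (SE 0.23, adjusted p = 1.54e-08). At E10.0 the wildtype levels were 3.18, 3.69, 4.32, 4.38 and 4.32 CPM and 17.1, 34.5, 19, 25.4 and 13.3 CPM. Those labelled Hoxa2-/- were 4.67, 2.95, 5.70, 4.71 and 6.15 CPM and 19.7, 22.3, 21.1, 19.4 and 18.6 CPM. PA2 was 5.49 times and 4.18 times PA1 in group means, with log2 differences of 2.13 (SE 0.23, adjusted p = 1.37e-10) and 1.89 (SE 0.23, adjusted p = 8.29e-09). At E10.5, wildtype held 4.85, 4.90 and 7.39 CPM in PA1 and 15.2, 11.6 and 9.76 CPM in PA2, 0.97 (SE 0.29, adjusted p = 0.086), which passed with the embryo as a block (adjusted p = 0.036) and when only the compared groups were fitted. The label Hoxa2-/- gave 4.69, 3.46 and 2.0 CPM and 16.2, 18.2 and 21.9 CPM, 2.21 (SE 0.29, adjusted p = 3.01e-07). Heyl was higher in PA2 in 25 of 25 embryos from E9.5 on.

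Hes1, a target gene that other signals also control and that oscillates in progenitors, had the smallest called arch differences. At E9.0, wildtype PA1 held 36.7, 34.9, 36.7, 39.9 and 33 CPM and PA2 51.9, 45.3, 43.7 and 44.4 CPM. The libraries labelled Hoxa2-/- held 30.8, 36.3, 33.7 and 37.7 CPM in PA1 and 48.6, 47.7, 49 and 47.8 CPM in PA2. The groups did not overlap, and the differences were 0.35 (SE 0.09, adjusted p = 0.003) and 0.47 (SE 0.09, adjusted p = 0.00011). Hes1 was also called at E9.5 under the label Hoxa2-/-, at 0.32 (SE 0.08, adjusted p = 0.0075), but not when only the compared groups were fitted. Other Hes1 values ran from 0.10 to 0.22 and were not called, though the last passed with the embryo as a block (adjusted p = 0.049).

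Markers of some other cell types differed between the arches. Of 10 neuron markers, 9 were in the table and none was at 0 throughout, but 3 (Neurog1, Neurod4 and Pou4f1) averaged under 1 CPM. In each of the 8 comparisons, every PA2 library had a higher sum than every PA1 library. In wildtype it was 36.7 to 57 CPM in PA1 and 107 to 216 CPM in PA2 at E9.0, and 41.1 to 46 and 75.2 to 86.6 CPM at E10.5. Under the label Hoxa2-/- the sums were 36.9 to 52.6 and 113 to 192 CPM at E9.0 and 39.8 to 44.6 and 65.8 to 78.7 CPM at E10.5. Their part in the arch differences, that of Hey1 at E10.5 included, was not tested. Arch mesenchyme markers at E9.0 summed to 583 to 676 CPM in wildtype PA1 and 366 to 443 CPM in PA2, and 532 to 645 and 359.7 to 547 CPM under the label Hoxa2-/-, where the arches overlapped. Of 7 heart muscle markers, 6 were in the table and none was at 0 throughout, but 1 (Myl2) averaged under 1 CPM. Their sum at E9.0 was 12.3 to 33.3 CPM in wildtype PA1 and 29.2 to 1069 CPM in wildtype PA2, and 19.2 to 58 and 72.3 to 941 CPM under the label Hoxa2-/-. All 4 arterial endothelial markers were present, at 159 to 191 CPM in wildtype PA1 and 170.1 to 272 CPM in PA2 at E9.0, and 92.1 to 199 and 219 to 290.0 CPM at E9.5. Under the label Hoxa2-/- they were at 200.4 to 222 and 127 to 332 CPM at E9.0. At E9.5 they were at 156 to 228 and 259 to 329 CPM there. Sums of the 12 endothelial markers overlapped between the arches at both stages and labels. In wildtype they were 359.6 to 438 and 320.1 to 436 CPM at E9.0, and 268 to 354 and 309 to 386 CPM at E9.5. The 6 smooth muscle and pericyte markers summed to 141 to 249.9 CPM in wildtype PA1 and 137 to 859 CPM in wildtype PA2 at E9.0. In wildtype PA2 this sum was 859, 720 and 659 CPM in libraries with heart muscle sums of 1069, 965 and 988 CPM. It was 137 CPM in the library with a heart muscle sum of 29.2 CPM. The list therefore does not separate smooth muscle from heart muscle there. The part of these lists in the arch differences at any stage was not tested. At E10.0 the heart muscle sums were 3.19 to 6.001 CPM in wildtype PA1 and 10.05 to 70.8 CPM in wildtype PA2. Under the label Hoxa2-/- they were 2.81 to 5.903 and 5.912 to 56.35 CPM, so the arches overlapped under neither label. Arterial markers at E10.0 were at 130.8 to 174.8 and 139.6 to 244 CPM in wildtype, where the arches overlapped. Under the label Hoxa2-/- they were at 143 to 186 and 214 to 257 CPM, without overlap. By E10.5 the heart muscle sums were 3.65 to 4.90 and 3.16 to 6.69 CPM in wildtype and 0.907 to 3.61 and 3.08 to 6.0 CPM under the label Hoxa2-/-. Hey1 group means at E10.5 were 2.31 times higher in PA2 in wildtype and 5.23 times higher under the label Hoxa2-/-. Arterial markers at E10.5 were at 127 to 134 and 131 to 149 CPM in wildtype, and 138 to 142 and 165 to 204 CPM under the label Hoxa2-/-. Without the 12 libraries in which heart muscle markers exceeded 100 CPM, Hey1 remained called in all 8 comparisons. Dll4 at E9.0 was 0.11 (adjusted p = 0.86) under the label Hoxa2-/- and was 0.78 (adjusted p = 0.12) in wildtype, and Jag1 in wildtype at E9.0 was 0.39 (adjusted p = 0.33). Wildtype Hes1, Notch2 and Heyl at E9.0 also lost their calls in that fit, as did Heyl under the label Hoxa2-/-, at log2 values of 0.32, -0.54, -0.42 and -0.50. At E9.5 the calls of Notch1 in wildtype and of Hes1 and Dll4 under the label Hoxa2-/- were lost, at 0.67, 0.33 and 0.76. That fit has 1 PA2 library per label at E9.0, assumed to vary like the other groups: the wildtype one is the library richest in red cell transcripts, and the other is the library low in long transcripts. On the latter alone, Jag1, Notch1 and Notch3 were called lower in PA2 labelled Hoxa2-/- at E9.0, at -1.44, -1.27 and -1.77.

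The second comparison asked what changed from E9.0 to E10.5 in each arch. Jag1, Hey1 and Heyl fell and Jag2 rose in PA1 under both labels. Jag1 and Hey1 fell and Jag2 rose in wildtype PA2 as well. In PA2 labelled Hoxa2-/-, Heyl rose and none of Jag1, Hey1 and Jag2 was called, and whether the stage change differed between the labels was not tested. Dll4 and Hes1 fell and Notch2 rose in PA2 under both labels. Of the 10 genes, 4 were called in wildtype PA1, 6 in wildtype PA2, 4 in PA1 labelled Hoxa2-/- and 5 in PA2 labelled Hoxa2-/-, beside 42.5%, 36.9%, 31.2% and 30.9% of all genes. With shares this high over all genes, the counts alone are no result about the pathway, and the values by gene are given. Each stage contrast shares its libraries with the arch contrasts of E9.0 and E10.5.

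**Figure D3:**
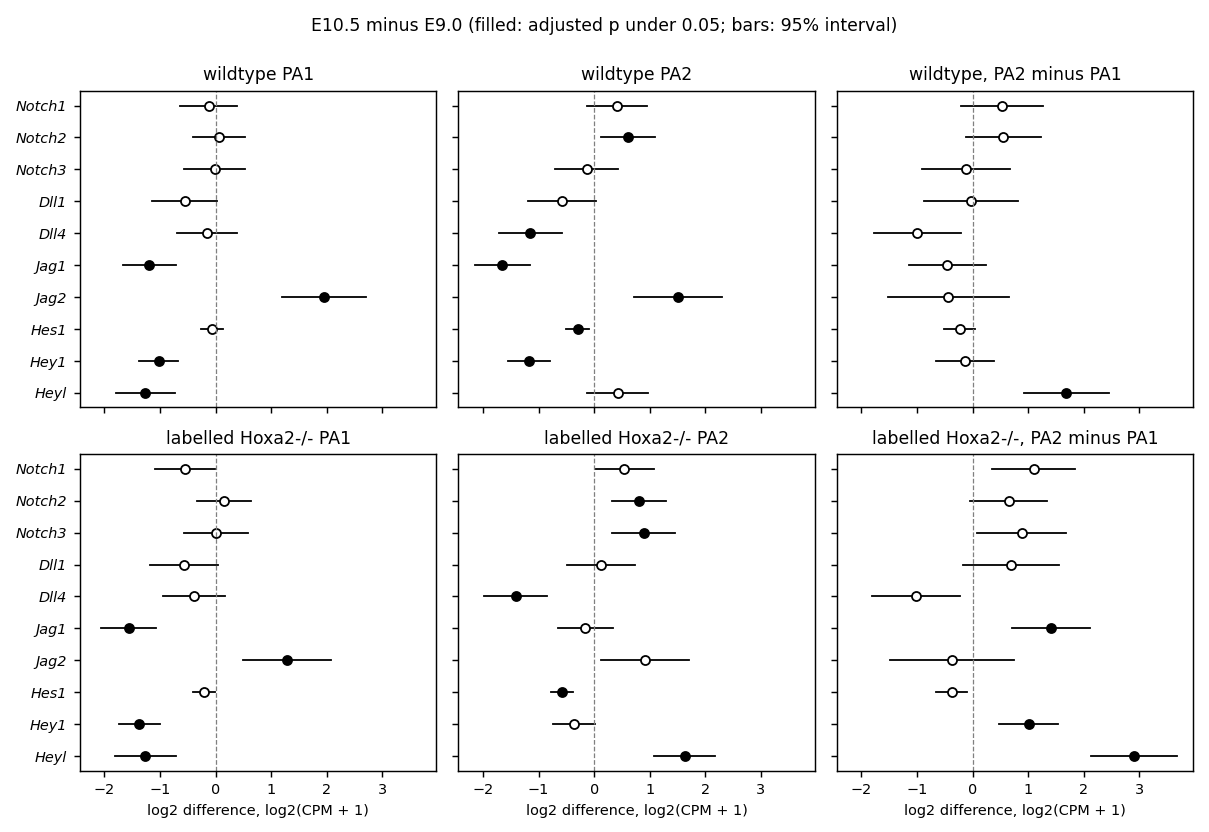
Points are log2 differences of E10.5 minus E9.0 for the 10 genes on the log2(CPM + 1) scale, with 95% intervals, in PA1 (left), PA2 (middle) and PA2 minus PA1 (right), for wildtype (top) and the label Hoxa2-/- (bottom); filled points passed an adjusted p of 0.05. Heyl is filled to the right of 0 in both right-hand panels, and Jag1 and Hey1 are filled there under the label Hoxa2-/-.

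In wildtype PA1 the Jag1 mean went from 44.1 ± 5.49 CPM (SD, n = 5) to 18.6 ± 1.47 CPM (SD, n = 3), a change of -1.20 (SE 0.24, adjusted p = 3.96e-05). In PA1 labelled Hoxa2-/- it went from 60.2 ± 11.6 CPM (SD, n = 4) to 19.4 ± 0.905 CPM (SD, n = 3), -1.57 (SE 0.25, adjusted p = 1.53e-06). The E9.0 and E10.5 libraries did not overlap in either. Wildtype PA2 Jag1 fell from 76.3 ± 17.7 CPM (SD, n = 4) to 23.2 ± 2.27 CPM (SD, n = 3), -1.65 (SE 0.25, adjusted p = 3.07e-07). PA2 labelled Hoxa2-/- had 66 ± 35.2 CPM (SD, n = 4) at E9.0 and 52 ± 13.5 CPM (SD, n = 3) at E10.5, -0.16 (SE 0.25, adjusted p = 0.68). That last value became -0.62 (adjusted p = 0.019) without the E9.0 library low in long transcripts, and so became a called fall. With the long-transcript level as a covariate it was -0.67 (adjusted p = 0.0013). Without the libraries rich in heart muscle transcripts it was 1.22, a rise, and there the low library alone stood for E9.0.

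Jag2 took the opposite course. It rose 4.15 times in wildtype PA1, from the 5 values 6.74, 8.62, 3.54, 7.25 and 7.41 CPM at E9.0 to 27.1, 25.7 and 30.8 CPM at E10.5, 1.94 (SE 0.38, adjusted p = 2.96e-05). In wildtype PA2 it rose from 5.51, 2.08, 5.52 and 4.98 CPM to 13.4, 17.3 and 12 CPM, 1.51 (SE 0.40, adjusted p = 0.0019). Neither pair overlapped. In PA1 labelled Hoxa2-/-, Jag2 rose from 4.36 ± 2.06 CPM (SD, n = 4) to 11.9 ± 4.24 CPM (SD, n = 3), 1.29 (SE 0.40, adjusted p = 0.0096), a call lost without either the first or the second E10.5 library. In PA2 labelled Hoxa2-/- the value was 0.92 (95% interval 0.12 to 1.71, adjusted p = 0.071). Under that label PA1 Jag2 was higher at E10.0 than at E10.5, with 18.9 ± 6.32 CPM (SD, n = 5) at E10.0. The 8 epithelial markers went the other way in wildtype PA1, from 640.4 to 1009 CPM summed at E9.0 to 445 to 516 CPM at E10.5, and their part in the Jag2 change was not tested.

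Dll4 fell in PA2 under both labels. Wildtype PA2 Dll4 went from 12.3 ± 2.19 CPM (SD, n = 4) to 5.06 ± 1.56 CPM (SD, n = 3), -1.15 (SE 0.28, adjusted p = 0.00093). PA2 labelled Hoxa2-/- went from 17.4 ± 10.6 CPM (SD, n = 4) to 5.12 ± 0.985 CPM (SD, n = 3), -1.41 (SE 0.28, adjusted p = 7.73e-05). In PA1 the Dll4 changes were -0.15 and -0.39, not called. Without the libraries rich in heart muscle transcripts, the second PA2 change was -0.31 (adjusted p = 0.52), and when only the compared groups were fitted it missed the threshold (adjusted p = 0.055). Whether the fall differed between the arches was tested directly: the PA2 change minus the PA1 change was -0.99 (SE 0.39, adjusted p = 0.16) in wildtype and -1.02 (SE 0.40, adjusted p = 0.1) under the label Hoxa2-/-. With the long-transcript level as a covariate both passed, at -1.26 (adjusted p = 0.012) and -1.69 (adjusted p = 0.0018). The wildtype value also passed when only the compared groups were fitted (adjusted p = 0.019). Under the label Hoxa2-/- it was -1.39 (adjusted p = 0.017) without the low library, but 0.078 without the libraries rich in heart muscle transcripts. Dll1 values were -0.56, -0.58, -0.57 and 0.12 in wildtype PA1 and PA2 and the same arches labelled Hoxa2-/-, with none called.

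Of the receptors, Notch2 and Notch3 were called with stage, in PA2. Notch2 rose in PA2, by 0.61 (SE 0.24, adjusted p = 0.044) in wildtype and 0.80 (SE 0.24, adjusted p = 0.0086) under the label Hoxa2-/-. The first call was lost when any 1 of 5 of the 7 wildtype libraries was left out. The second became 0.51 (adjusted p = 0.11) without the low library, 0.32 (adjusted p = 0.16) with the long-transcript level as a covariate, and was also lost without the second E10.5 library. It was not called when only the compared groups were fitted (adjusted p = 0.15). Notch3 rose in PA2 labelled Hoxa2-/-, from 52.6, 53.6, 11.8 and 27 CPM to 63.8, 55.6 and 55.8 CPM, 0.89 (SE 0.28, adjusted p = 0.013). Its value without the low library was 0.45 (adjusted p = 0.2), the call was also lost without the first E10.5 library, and edgeR on the recovered reads did not call it (adjusted p = 0.062). Fitting only the compared groups did not call it either (adjusted p = 0.24). With the long-transcript level as a covariate it was 0.27 (adjusted p = 0.25). Notch1 was not called in any of the 4, with values from -0.55 to 0.54.

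Among targets, Hey1 fell in wildtype PA1, PA1 labelled Hoxa2-/- and wildtype PA2, with log2 changes of -1.03 (SE 0.18, adjusted p = 4.19e-06), -1.37 (SE 0.19, adjusted p = 6.14e-08) and -1.17 (SE 0.19, adjusted p = 1.10e-06). In PA2 labelled Hoxa2-/- it was -0.36 (95% interval -0.74 to 0.01, adjusted p = 0.14), not called. Heyl fell in PA1 under both labels, with log2 changes of -1.26 (SE 0.26, adjusted p = 7.78e-05) and -1.27 (SE 0.27, adjusted p = 0.00025). In wildtype PA2, E9.0 libraries averaged 8.88 ± 2.08 CPM (SD, n = 4) of Heyl, E9.5 libraries 24 ± 4.37 CPM (SD, n = 4) and E10.5 libraries 12.2 ± 2.75 CPM (SD, n = 3), and the first-to-last change of 0.42 (SE 0.27, adjusted p = 0.23) was not called. PA2 labelled Hoxa2-/- averaged 21.2 ± 6.25 CPM (SD, n = 5) at E9.5 and 18.7 ± 2.89 CPM (SD, n = 3) at E10.5, and its change from E9.0 was 1.63 (SE 0.27, adjusted p = 4.19e-06). Hes1 fell in PA2, with log2 changes of -0.30 (SE 0.10, adjusted p = 0.015) in wildtype and -0.58 (SE 0.10, adjusted p = 5.66e-06) under the label Hoxa2-/-. The wildtype Hes1 call was lost without PA2 replicate 1 of E9.0 or of E10.5 and when only the compared groups were fitted. Endothelial markers in PA1 were also lower at E10.5. The sum of the 12 was 359.6 to 438 CPM at E9.0 and 190.4 to 224 CPM at E10.5 in wildtype PA1, and 356 to 438 CPM at E9.0 and 209 to 223 CPM at E10.5 in PA1 labelled Hoxa2-/-. The 4 arterial markers summed to 159 to 191 CPM at E9.0 and 127 to 134 CPM at E10.5 in wildtype PA1, and 200.4 to 222 CPM at E9.0 and 138 to 142 CPM at E10.5 in PA1 labelled Hoxa2-/-. In wildtype PA2 the 12 summed to 320.1 to 436 CPM at E9.0 and 205 to 232 CPM at E10.5. Their part in the changes of Jag1, Hey1, Heyl and Dll4 was not tested.

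The difference between the 2 arches in their change from E9.0 to E10.5 was tested as an interaction. Heyl passed under both labels, at 1.69 (SE 0.38, adjusted p = 0.004) and 2.90 (SE 0.39, adjusted p = 1.02e-06), with a fall in PA1 under both labels and a called rise in PA2 labelled Hoxa2-/-. Jag1 and Hey1 passed under the label Hoxa2-/-, at 1.41 (SE 0.35, adjusted p = 0.0088) and 1.01 (SE 0.26, adjusted p = 0.013). In all, 1 of 10 genes passed in wildtype, beside 3.35% of all genes, and 3 of 10 under the label Hoxa2-/-, beside 7.33%. With the embryo as a block, 7 of the 20 tests passed in place of 4, the added ones being Notch1 (adjusted p = 0.024), Dll4 (0.038) and Hes1 (0.034) under the label Hoxa2-/-. Jag1 was 0.95 (adjusted p = 0.033) without the low library, 1.41 (adjusted p = 0.19) when only the compared groups were fitted, and 0.59 (adjusted p = 0.15) with the long-transcript level as a covariate. Heyl in wildtype was 1.40 (adjusted p = 0.073) without the libraries rich in heart muscle transcripts.

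The third comparison asked how the libraries labelled Hoxa2-/- differed from wildtype in each arch. Notch2 was lower under the label Hoxa2-/- in both arches at each stage but E10.0. Jag1 and Hey1 were higher under that label in PA2 at E10.5, and Heyl was lower in PA1 at E9.5. In PA1, 1, 2, 0 and 1 of the 10 genes were called by stage, beside 2.08%, 23.6%, 0% and 3.05% of all genes. In PA2, 1, 1, 0 and 3 were called, beside 14%, 4.48%, 0.0814% and 10.3%. The counts of 0 at E10.0 from limma came with 2 of 10 genes in each arch at an unadjusted p under 0.05, and edgeR also called none of the 10. Over all genes in PA1 at E10.0 limma called 0 with 424 at an unadjusted p under 0.05, and edgeR called 0.

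**Figure D4:**
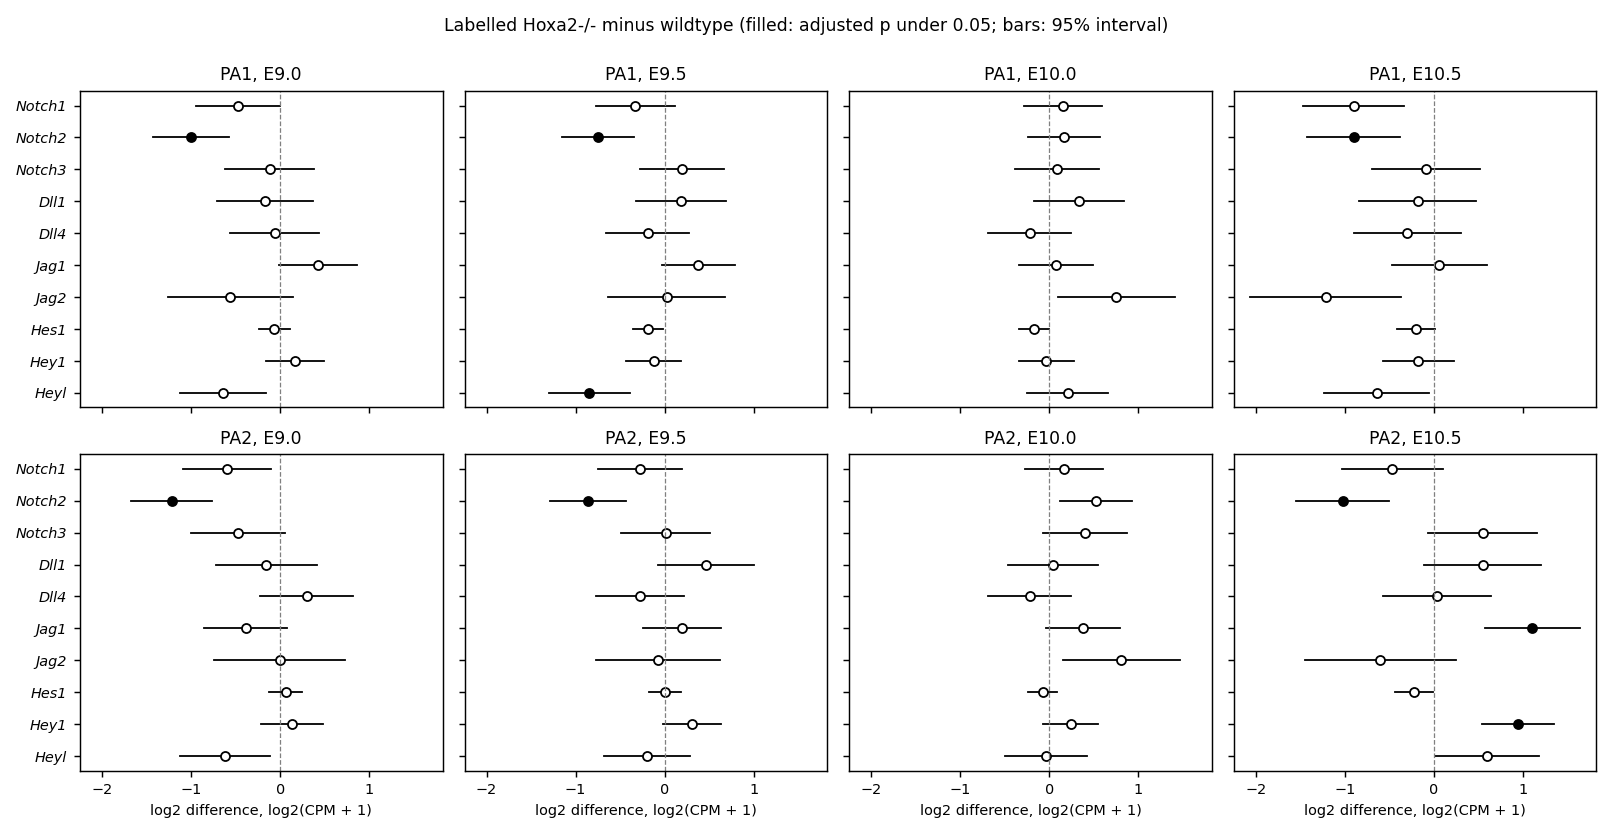
Points are log2 differences of the label Hoxa2-/- minus wildtype for the 10 genes on the log2(CPM + 1) scale, with 95% intervals, in PA1 (top) and PA2 (bottom) at the 4 stages; filled points passed an adjusted p of 0.05. Notch2 is filled left of 0 in both arches at each stage but E10.0, and Jag1 and Hey1 are filled right of 0 in PA2 at E10.5.

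Notch2 values at E9.0, given above for the arch comparison, differed by -1.0 (SE 0.21, adjusted p = 0.0045) in PA1 and -1.22 (SE 0.23, adjusted p = 0.00014) in PA2. At E9.5, wildtype PA1 held 17.4, 28.1, 14.1, 25.9 and 28.9 CPM and PA1 labelled Hoxa2-/- 12.8 ± 2.23 CPM (SD, n = 5) with a highest value of 16.2 CPM, which overlapped, and the difference was -0.75 (SE 0.20, adjusted p = 0.0052). PA2 at that stage held 24.3, 21.8, 19.3 and 27.3 CPM in wildtype and 13.9, 10.7, 9.29, 20.1 and 9.58 CPM under the label Hoxa2-/-, with -0.86 (SE 0.21, adjusted p = 0.011). One library of PA2 labelled Hoxa2-/-, at 20.1 CPM, lay inside the wildtype range. At E10.5, PA1 held 23.4, 32 and 25 CPM in wildtype and 11.9, 15.2 and 14.3 CPM under the label Hoxa2-/-, and PA2 held 25.3, 28.2 and 24.2 and 13.4, 14.6 and 9.32 CPM. These groups did not overlap, and the differences were -0.90 (SE 0.26, adjusted p = 0.04) and -1.02 (SE 0.26, adjusted p = 0.0064). The first was lost when any 1 of its 6 libraries was left out or with a pseudocount of 0.25, and the second without PA2 replicate 3 labelled Hoxa2-/-. The PA2 difference at E9.0 was not called when only the compared groups were fitted (adjusted p = 0.2), and the PA2 difference at E9.5 was -0.44 (adjusted p = 0.46) without the libraries rich in heart muscle transcripts.

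At E10.0 wildtype Notch2 was itself low. Wildtype PA1 held 13.1, 13.3, 10.2, 15.9 and 13.1 CPM and PA2 12.1, 15.7, 5.68, 9.30 and 15.7 CPM, in the range of the libraries labelled Hoxa2-/-, which held 19.1, 11.7, 14.9, 14.2 and 14.1 and 16.5, 17.9, 15.3, 14.6 and 17.4 CPM. The differences were 0.16 (SE 0.20, adjusted p = 1) and 0.53 (SE 0.20, adjusted p = 0.56). Notch2 thus followed the division of libraries described above: its median was 24.3 CPM in those 24 wildtype libraries, 13.1 CPM in the 10 wildtype libraries of E10.0, and 13.6 CPM in the 34 libraries labelled Hoxa2-/-. None of the other 44 libraries exceeded the median of the 24. At 3 stages the label and this division cannot be told apart, and the labels name no batch. The other 2 receptors did not share the pattern as a called difference. In its levels, though, Notch1 leaned the same way. Of the other 44 libraries, 5 exceeded the Notch1 median of the 24, and 21 of the 24 exceeded the median of the other 44. For Notch3 these counts were 28 of 44 and 7 of 24. The Notch1 difference between the labels at E10.5 therefore cannot be told apart from the division either. Notch1 in PA1 at E10.5 held 8.72, 6.01 and 6.98 CPM under the label Hoxa2-/- against 13.9, 15.2 and 13.7 CPM in wildtype, without overlap and with -0.90 (95% interval -1.47 to -0.33, adjusted p = 0.068). It was called when only the compared groups were fitted (adjusted p = 0.018). Notch3 differences ran from -0.47 to 0.55, none called. The highest, in PA2 at E10.5, passed when only the compared groups were fitted (adjusted p = 0.031). With the long-transcript level as a covariate it was 0.62 and passed (adjusted p = 0.011).

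The PA2 differences at E10.5 involved a ligand and a target. At this stage the label and the division of libraries described above cannot be told apart for any gene. Jag1, with the values given above, was 2.24 times higher in group means in PA2 labelled Hoxa2-/-, 1.11 (SE 0.27, adjusted p = 0.0037), and the call was lost without its replicate 3. Hey1 was 1.95 times higher, 0.94 (SE 0.20, adjusted p = 0.00097), with no overlap and no single library deciding it. In PA1 at E10.5 the same 2 genes differed by 0.06 (95% interval -0.47 to 0.59, adjusted p = 0.96) and -0.18 (95% interval -0.58 to 0.22, adjusted p = 0.75). Heyl in PA2 at E10.5 was 0.59 (95% interval 0.01 to 1.18, adjusted p = 0.2), with groups that did not overlap but no call. The 12 endothelial markers summed to 205 to 232 CPM in wildtype PA2 at E10.5 and 252 to 321 CPM under the label Hoxa2-/-, and the 4 arterial markers to 131 to 149 and 165 to 204 CPM. Their part in the difference was not tested.

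Heyl in PA1 at E9.5, with the values given above, was lower under the label Hoxa2-/-, with a log2 difference of -0.85 (SE 0.23, adjusted p = 0.0051), and the groups overlapped. It was not called when only the compared groups were fitted (adjusted p = 0.069). Heyl values at E9.0 were -0.64 in PA1 and -0.62 in PA2 without a call. Jag2 in PA1 at E10.5 averaged 11.9 against 27.9 CPM in wildtype, with -1.21 (95% interval -2.06 to -0.37, adjusted p = 0.11). It passed with a pseudocount of 5 and when only the compared groups were fitted. Dll1, Dll4 and Hes1 were not called between the labels in either arch, and their values ran from -0.30 to 0.54.

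Whether the label effect differed between PA2 and PA1 was tested at each stage. None of the 40 tests of the 10 genes passed in limma or edgeR, and 4 had an unadjusted p under 0.05. Over all genes the shares were 0%, 0.0109%, 0.0163% and 0.038% by stage, so few genes of any kind passed. The largest values for the 10 genes were at E10.5, with 1.24 (95% interval 0.41 to 2.07, adjusted p = 0.92) for Heyl, 1.12 (95% interval 0.55 to 1.68, adjusted p = 0.23) for Hey1 and the Jag1 value given above. Their intervals lie above 0 before adjustment. The higher Hey1 and Jag1 of PA2 labelled Hoxa2-/- at E10.5 is therefore not shown to be particular to PA2.

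The spread within groups was not the same kind of spread for all 10 genes. Deviations from the group mean over the 68 libraries went with the long-transcript level for Notch3 (Pearson r = 0.82), Jag1 (0.79), Notch2 (0.76), Notch1 (0.62) and Dll4 (0.58). For the target genes Hes1 (-0.12), Hey1 (0.09) and Heyl (0.03) and for Dll1 (-0.05) it did not, and Jag2 lay between (0.37). With the summed arterial endothelial markers, r was 0.84 for Notch3, 0.79 for Jag1, 0.68 for Dll4 and 0.67 for Notch1, against 0.23 for Hey1. For Notch2 and Jag2 it was 0.59 and 0.49. With the 12 endothelial markers, r was lower for the first 4 genes and higher for Hey1. It was 0.44 for Notch3, 0.59 for Jag1, 0.56 for Dll4, 0.43 for Notch1 and 0.35 for Hey1. These are descriptions over libraries that share depth and RNA quality between genes. Of the arterial markers, Efnb2, Unc5b and Gja5 have 6855, 6258 and 5746 exon bases and Gja4 has 1685. Wildtype PA1 replicate 3 at E9.5 had the lowest arterial sum of the 68 libraries, 92.1 CPM. Its 12 endothelial markers were the highest of its group, at 354 CPM, and its long-transcript level of -0.19 was the lowest there. How far the arterial sum follows the long-transcript level was not tested. Notch3 and Jag1 also deviated together (r = 0.76), the closest of the 45 pairs of the 10 genes.

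**Figure D5:**
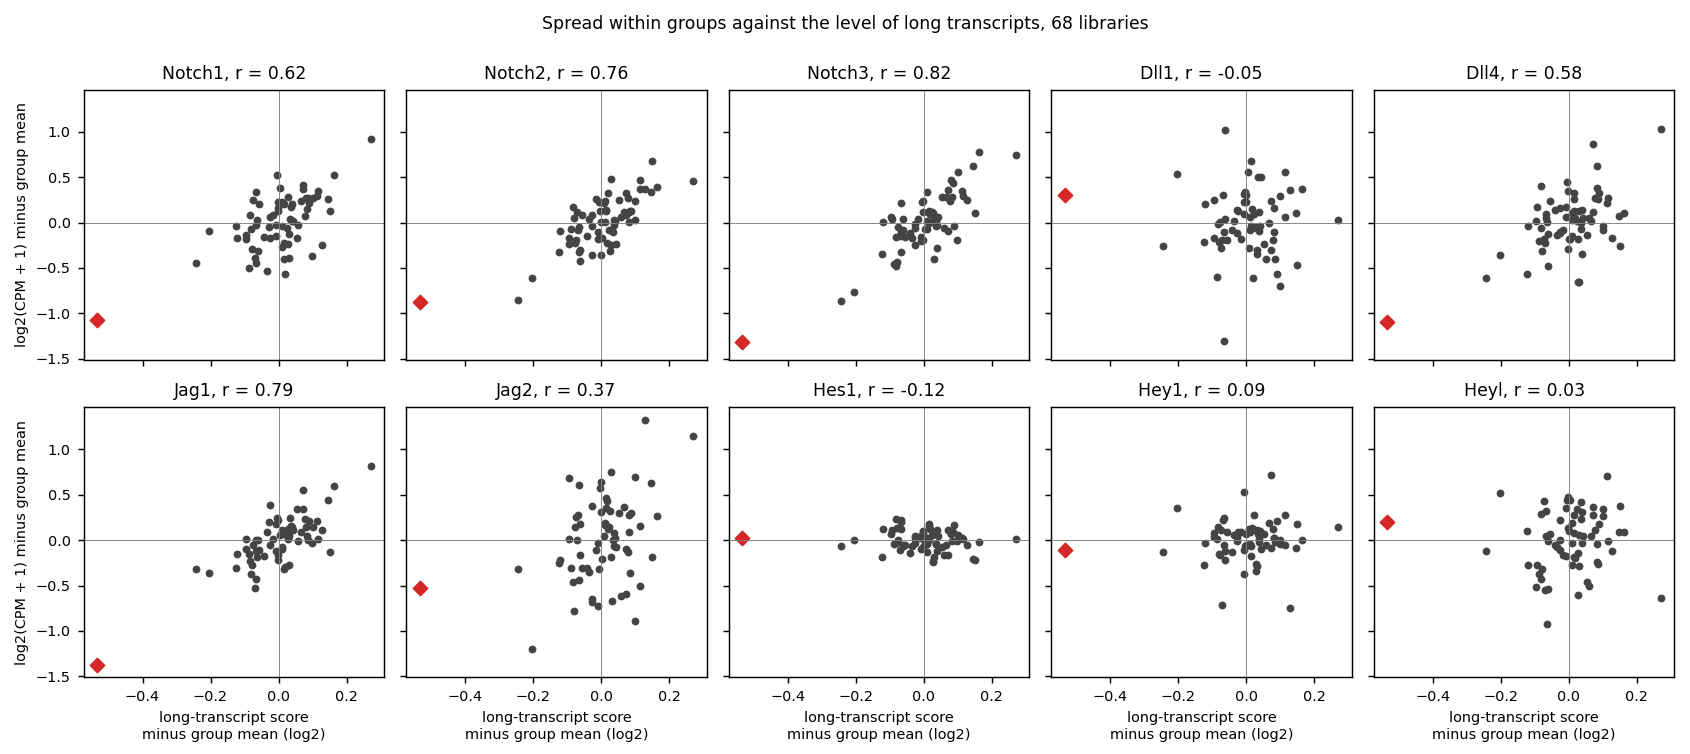
Each panel plots, for 1 gene, each library's log2(CPM + 1) minus its group mean against its long-transcript level minus the group mean, over 68 libraries, with Pearson's r in the title and the third library of PA2 labelled Hoxa2-/- at E9.0 as a red diamond. That library lies far to the left in every panel and low for the receptors, Dll4 and Jag1, and near 0 for Hes1, Hey1 and Heyl.

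The genes whose levels went most closely with each of the 10 over the 68 libraries, among 10470 genes of at least 5 CPM outside the pathway lists, were found by Pearson's r of log2(CPM + 1). Hey1 went with Pax1, a transcription factor gene of pharyngeal pouch endoderm and sclerotome (r = 0.96), and Cyp1b1 (0.94). Jag1 went with Eogt, a glycosyltransferase gene (0.91), and Cyfip2 (0.89). Dll4 went with Efna1, an ephrin ligand (0.84), and Rgs3 (0.81), and Jag2 with Pkp3, a desmosome gene (0.79), and Esrp2, an epithelial splicing regulator (0.77). Notch1 had Aff3 (0.73), Notch2 had Arhgap35 (0.88) and Baz1b (0.87), and Notch3 had Arhgef17 (0.88) and Ptprs (0.88). Heyl went with Rarres1 (0.80) and Gpc4 (0.77), Hes1 with Orai1 (0.82) and Gng11 (0.82), and Dll1 with Sppl2b (0.59) and Fzd7 (0.59). The libraries share stage, arch and depth, so these values only order genes by likeness.

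The rest of the pathway was followed through a list of 41 other genes, of which 40 were in the table and 39 were tested, Hes5 lying below the filter and Hes7 not analysed here. Between the arches, 22 of 156 tests of these genes passed in wildtype (16 higher in PA2, 6 lower) and 18 of 156 under the label Hoxa2-/- (11 higher, 7 lower). These are 14.1% and 11.5% of the tests, beside 13.1% and 9.94% over all genes in the same contrasts, so the counts stand near the background. The further receptor Notch4, of endothelium, was higher in wildtype PA2 at E9.5, 0.80 (SE 0.28, adjusted p = 0.029). Among other ligands, Dlk1, an atypical ligand without the Delta domain, ran against Jag1: at E10.0 it was 324 ± 72.4 CPM (SD, n = 5) in wildtype PA1 and 155 ± 35.2 CPM (SD, n = 5) in PA2, -1.06 (SE 0.22, adjusted p = 0.00043). It was also lower in PA2 at E9.5 in wildtype and at E9.5 and E10.0 under the label Hoxa2-/-, at -0.69, -1.26 and -0.79. Dll3 stayed at or under 2.71 CPM in all libraries.

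Of the other targets, Nrarp, a feedback inhibitor that Notch induces, was higher in PA2 at E9.0 and E9.5 under both labels. Its log2 differences were 0.64 (SE 0.15, adjusted p = 0.0016) and 0.42 (SE 0.15, adjusted p = 0.031) in wildtype and 0.55 (SE 0.16, adjusted p = 0.0086) and 0.70 (SE 0.14, adjusted p = 0.00043) under the label Hoxa2-/-. Hes6, a Hes-family gene that opposes Hes1, was higher in PA2 at E9.0, at 0.62 and 0.54. Hey2, the third Hey gene, was not called between the arches at any stage. The enzymes and cofactors gave scattered calls, the widest being Neurl1b, a ubiquitin ligase for Notch ligands, at E9.0, with 1.23 (SE 0.24, adjusted p = 0.00013) and 1.30 (SE 0.25, adjusted p = 0.00011). In wildtype its PA1 libraries at E9.0 held 0.157 to 0.488 CPM and its PA2 libraries 0.588 to 3.502 CPM. Hes5, a target of neural progenitors, did not exceed 1.40 CPM in any library and was not tested.

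With stage, 25 of 78 tests of the wider list passed in wildtype (4 rose, 21 fell) and 27 of 78 under the label Hoxa2-/- (9 rose, 18 fell). These shares of 32.1% and 34.6% stand beside 39.7% and 31.1% over all genes, and the counts say nothing particular to the list. Hey2 fell in all 4 arch and label groups, from 13.6 ± 2.16 CPM (SD, n = 4) to 1.97 ± 0.247 CPM (SD, n = 3) in wildtype PA2, where its change was -2.29 (SE 0.21, adjusted p = 5.06e-13). Its other changes were -1.76 in wildtype PA1 and -1.47 and -1.79 in PA1 and PA2 labelled Hoxa2-/-. All 3 Hey genes thus fell in PA1, and in PA2 Hey2 fell under both labels. Dlk1 rose in PA1, by 0.87 (SE 0.25, adjusted p = 0.0034) in wildtype and 1.23 (SE 0.26, adjusted p = 0.00017) under the label Hoxa2-/-. Hes6 rose in 3 of the 4 groups, most in wildtype PA1, 0.92 (SE 0.12, adjusted p = 1.74e-08). Nrarp fell in PA2, at -0.52 and -0.61. Furin, the protease that matures the receptor, fell in all 4 groups, with a log2 change of -0.80 in wildtype PA2. Dtx4, a ubiquitin ligase of receptor turnover, fell in PA1 under both labels, at -1.09 and -1.25, as did Maml3, a coactivator of the nuclear complex, at -0.69 and -0.77.

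Between the labels, 10 of 156 tests of the wider list passed in PA1, all 10 at E9.5, where 23.6% of all genes were called, and 8 of 156 in PA2. Over the 4 stages these are 6.41% and 5.13%, beside 7.18% and 7.23% over all genes. The largest in PA1 was Adam10, the protease that makes the first activating cut, at 0.66 (SE 0.14, adjusted p = 0.00067), and the largest in PA2 was Mib2, a ubiquitin ligase for ligands, at 0.87 (SE 0.22, adjusted p = 0.006). No gene of the wider list passed the test of the label effect by arch in limma or edgeR, with 6 of 156 tests at an unadjusted p under 0.05.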

How the data were processed

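RNA from hand-dissected arches was sequenced in 68 libraries. Per the submitters' processing notes, bcl2fastq 2.18, TopHat2 2.1.1 and R 3.3.2 were used with mm10; the counting program, annotation and strandedness are not given in the sources used here. The authors deposited 1 table of normalized gene values, called CPM here and recorded as a signal because columns summed to 926298 to 1051959; whole reads were recovered for 100% of values, within 0.1 read. Genes with at least 1 CPM in at least 3 libraries were fitted with limma 3.58.1 (R 4.3.3) on log2(CPM + 1), with 1 mean for each of 16 groups over all 68 libraries, a mean-variance trend, two-sided p-values, and adjustment by Benjamini-Hochberg across 18428 genes. edgeR 4.0.16 (quasi-likelihood) on the recovered reads was an alternative, as were other pseudocounts, filters, scaling, fitted groups and left-out libraries. The fit was tested on simulated data. Arches of 1 replicate number share an embryo, per the series text: their deviations correlated at a median r of 0.35 in 33 pairs, above 0.1 in 30, against -0.12 in 116 pairs with different numbers. The 10 genes, the lists and the naming rules (all 10 members, the pathway genes by role, the 2 genes most alike each member) were chosen with earlier results of these data known. Some genes these rules name are not reported here. Replicates are separate embryos by their numbers.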

Additional observations from a re-analysis of the deposited data

Results flagged for a closer look

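In 4 of 120 groups of 4 or 5 libraries, 1 library lay far from the rest by Dixon's criterion, where chance gives about 5%. Dll1 was 8.82 CPM in wildtype PA2 replicate 5 at E9.0 against 2.27 to 3.15 CPM in the other libraries of its group. Dll4 was 15.5 CPM in wildtype PA2 replicate 1 at E9.0 against 10.9 to 11.6 CPM. Jag2 was 2.08 CPM in wildtype PA2 replicate 2 at E9.0 against 4.98 to 5.52 CPM; that library also held the most red cell transcripts. Hey1 was 15.8 CPM in wildtype PA1 replicate 3 at E10.0 against 19.7 to 21.2 CPM.

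From the first stage to the last, the change differed between the arches by the interaction test for 3 genes. The PA2 change minus the PA1 change was 1.69 for Heyl in wildtype, and 2.90 for Heyl, 1.41 for Jag1 and 1.01 for Hey1 under the label Hoxa2-/-, on the log2(CPM + 1) scale.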

How the results depend on the processing

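Of 64 called differences among 260 tests of the 10 genes, 49 kept direction and call under every other pseudocount, filter, scaling, choice of fitted groups, block and tool, 41 also when each library was left out, and 37 also in the alternatives added after seeing the data (libraries low in long transcripts and red cell, yolk sac and heart muscle libraries left out, and the long-transcript level as a covariate). No call reversed. Leaving out the 12 libraries with heart muscle transcripts gave 9 calls in place of 15 in the wildtype arch contrasts and 2 in place of 0 for the label effect by arch. With the embryo as a replicate block, 7 calls of the stage effect by arch stood in place of 4, and the other families gave 17, 19, 4, 5, 0, 10 and 9, in the order wildtype arch, arch under the label Hoxa2-/-, label in PA1, label in PA2, label by arch, wildtype stage and stage under that label, which ended no call. Leaving out 1 library gave 3 to 7 calls for the label in PA2, where 5 stood. The value of Dll4 for the stage effect by arch under the label Hoxa2-/- was 0.078 without the heart muscle libraries and -1.02 with them, and that of Notch3 was -0.10 with the long-transcript covariate and 0.88 without. Neither was called in the reported fit, and the cause was not tested. Over all genes, edgeR called 898 genes for the stage effect by arch under that label, against 1351, and 1 against 7 for the label effect by arch at E10.5. Levels under 1 CPM rest on few reads, and groups of 3 limit the E10.5 contrasts most.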
